A study of Mus musculus with 9 samples.

Results

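Toll-like receptors are the germline-encoded sensors with which dendritic cells (DCs) and other myeloid cells recognize microbes. The 10 mouse genes Tlr1, Tlr2, Tlr3, Tlr4, Tlr6, Tlr7, Tlr9, Tlr11, Tlr12 and Tlr13 were taken by their symbols from a table of 54532 genes, and each of the 10 symbols had 1 row. RNA was sequenced from splenic cells of C57BL/6 mice in 3 groups of 3 samples. N-mDCs were the mature conventional DCs (cDCs) of healthy mice without treatment. T-mDCs were the mature cDCs of mice with T cell acute lymphoblastic leukemia (T-ALL), and T-DCs were the CD11c+MHCIIlo cells of T-ALL mice, labelled as immature DCs. Leukemia had been started with a retrovirus, MSCV-ICN1-IRES-GFP, that carries the intracellular domain of Notch1 and a GFP reporter, and GFP+ leukemia cells were then passed to recipients without irradiation. T-DCs and T-mDCs therefore both come from a host with transplanted leukemia, and T-DCs were defined by low surface MHCII. The labels do not say whether the samples of a group were separate mice, so p-values measure the spread between these samples, which may be technical.

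As background, TLR1, TLR2, TLR4 and TLR6 sit at the cell surface and bind components of microbial walls, whereas TLR3, TLR7, TLR9, TLR11, TLR12 and TLR13 work in endosomes, where most of them detect nucleic acids. Endosomal receptors are escorted from the endoplasmic reticulum by UNC93B1, and the signal passes through the adaptor MyD88 or, for TLR3, through TRIF. Among splenic cDCs, the cross-presenting cDC1 subset is known for TLR3 and TLR11. The split into surface and endosomal receptors was taken from this knowledge and was not measured in these samples.

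Reads on genes ranged from 15360815 to 18440913 among the 9 samples. T-DC samples 2 and 3 stood apart from T-DC sample 1, with hemoglobin genes taking 3.82% and 3.0% of their reads and 0.0422% in sample 1, and 0.405% or less in the other groups. T-mDC samples 2 and 3 were closer to each other (chi-square per gene of 1.85 where counting noise alone gives 1) than any other pair within a group (8.11 or more), and both were kept. The cDC genes Zbtb46 and Flt3 were low in the cells labelled as T-DCs. Zbtb46 was at 1.84, 2.84 and 3.42 in T-DCs and 11.7 to 16 in N-mDCs, and Flt3 was at 15.4, 6.11 and 4.48 in T-DCs and 44.4 to 78.8 FPKM in N-mDCs. In T-mDCs, Zbtb46 was at 10.7 to 23.5 and Flt3 at 62.9 to 89.1 FPKM. Itgax, which encodes CD11c, was at 152, 90.4 and 43.0 in T-DCs, 158 to 230 in N-mDCs and 159 to 167 FPKM in T-mDCs. Its T-DC samples lay below both other groups, and neither difference was called (limma adjusted p = 0.0926 and 0.149). Levels are given as FPKM, the reads on a gene per kilobase of its length scaled to the size of the library, so levels of different receptors can be compared.

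Promoter sequences are shown for the receptors on which the comparisons turn. Tlr3, Tlr11 and Tlr12 were lower in T-DCs than in both other groups, and Tlr13 was the most abundant receptor in T-DCs. The sequences are 300-base windows around the RefSeq start sites in GRCm38.p6, written 5′ to 3′ on the strand of the gene. Tlr11 is at chr14:50357664-50357963 on the plus strand, Tlr3 at chr8:45410331-45410630 on the minus strand, Tlr12 at chr4:128618570-128618869 on the minus strand and Tlr13 at chrX:106143025-106143324 on the plus strand. Capitals mark matches, on either strand, to GAGGAAGT (a site of PU.1, a factor of myeloid cells), the interferon-stimulated response element (for example GAAACTGAAA, where bases 5 and 6 may be any), an NF-kB site (for example GGGAGTTTCC, with the same freedom), TGANTCA (AP-1) or TATAAA (the TATA box). E-boxes (CANNTG) were searched but are not in capitals.
Tlr11: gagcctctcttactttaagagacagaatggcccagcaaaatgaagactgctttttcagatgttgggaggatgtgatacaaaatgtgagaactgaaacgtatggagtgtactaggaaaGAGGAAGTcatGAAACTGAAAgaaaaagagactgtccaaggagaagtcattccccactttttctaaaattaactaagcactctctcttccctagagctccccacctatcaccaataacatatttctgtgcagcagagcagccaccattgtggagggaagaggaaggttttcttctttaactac
Tlr3: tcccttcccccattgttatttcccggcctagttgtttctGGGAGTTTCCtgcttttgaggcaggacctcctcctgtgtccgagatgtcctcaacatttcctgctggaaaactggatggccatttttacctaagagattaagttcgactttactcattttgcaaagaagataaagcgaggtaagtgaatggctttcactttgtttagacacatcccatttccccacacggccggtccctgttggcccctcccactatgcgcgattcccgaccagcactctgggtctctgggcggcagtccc
Tlr12: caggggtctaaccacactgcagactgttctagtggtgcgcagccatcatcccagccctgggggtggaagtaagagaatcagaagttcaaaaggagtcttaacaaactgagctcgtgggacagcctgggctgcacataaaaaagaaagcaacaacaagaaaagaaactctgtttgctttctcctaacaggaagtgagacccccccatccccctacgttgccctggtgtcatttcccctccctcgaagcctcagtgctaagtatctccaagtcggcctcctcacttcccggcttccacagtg
Tlr13: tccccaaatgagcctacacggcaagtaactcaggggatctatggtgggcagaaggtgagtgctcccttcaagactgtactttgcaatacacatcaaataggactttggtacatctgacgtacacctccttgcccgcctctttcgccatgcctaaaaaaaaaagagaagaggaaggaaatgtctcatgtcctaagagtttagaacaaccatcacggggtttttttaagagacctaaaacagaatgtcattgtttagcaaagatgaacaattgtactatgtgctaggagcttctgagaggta
The Tlr11 window held GAGGAAGT from base -133 and the response element from base -122, counted from the start site, with 3 bases between them. The Tlr3 window held its NF-kB match from base -211, and the windows of Tlr12 and Tlr13 held none of the 5 marked motifs. RefSeq windows were matched for 8 of the 10 receptors, with alternative starts for Tlr1 and Tlr6. Of these 10 windows, GAGGAAGT was in 3 (Tlr1, Tlr9 and Tlr11), the interferon-stimulated response element in 2 (Tlr6 and Tlr11), the NF-kB motif in 1 (Tlr3), TGANTCA in 1 (Tlr9), TATAAA in 1 (Tlr6) and CANNTG in 6. In all 32544 promoter windows of that table, the shares were 3.11%, 3.45%, 1.47%, 7.79%, 13.6% and 72.3% in the same order. These matches describe the letters of the windows and are no measure of binding.

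All 10 receptors were expressed above the filter of at least 1 FPKM in at least 3 samples, and the make-up of the receptor transcripts differed between the groups. Tlr13, whose product senses bacterial ribosomal RNA, was the highest receptor in each T-DC sample and took 37.1%, 34.2% and 41.8% of the summed FPKM of the 10 receptors. Its share was 13.1% to 15.1% in N-mDCs and 9.02% to 18.6% in T-mDCs. Tlr3 was the lowest receptor in each T-DC sample, with 0.781% to 1.32% of the sum.
In N-mDCs the highest receptor was Tlr7 in sample 1 and Tlr2 in samples 2 and 3. In T-mDCs it was Tlr9 in sample 1 and Tlr11 in samples 2 and 3, where Tlr11 reached 28.8% and 29.4% of the sum. The endosomal receptors together made up 66.4%, 58.8% and 58.1% of the sum in N-mDCs, 70.6%, 65.1% and 76.1% in T-DCs, and 68.6%, 75.5% and 76.2% in T-mDCs. The endosomal share of T-DCs overlapped with that of both other groups.

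**Figure D1:**
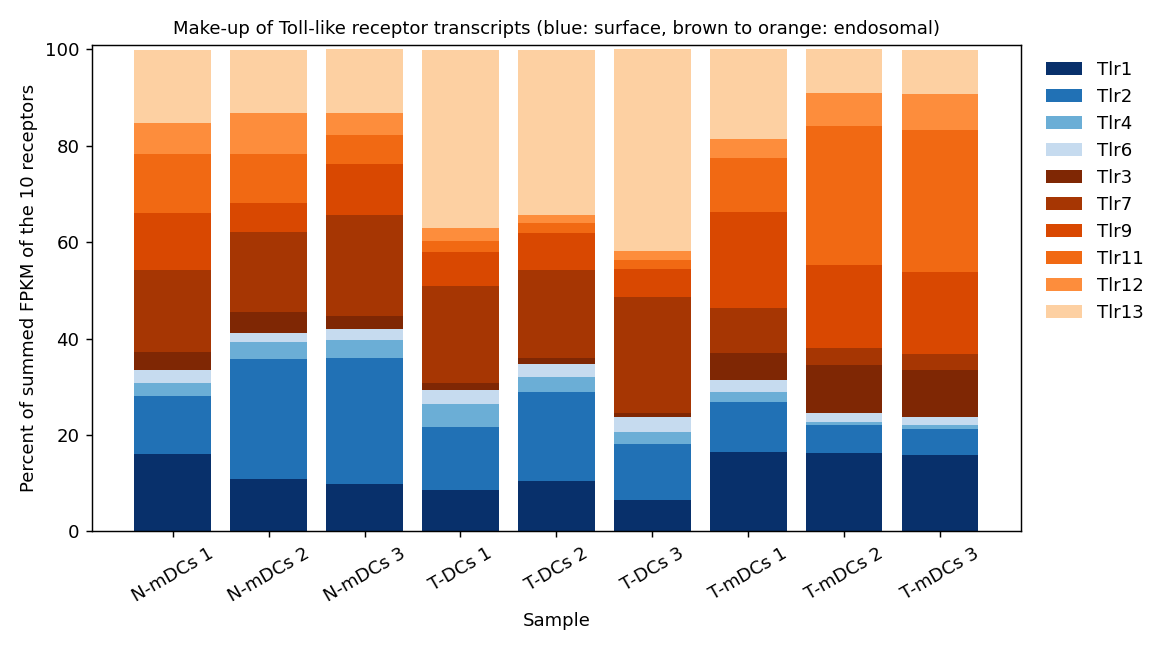
Percent of the summed FPKM of the 10 receptors (y axis) taken by each receptor in each of the 9 samples (x axis), surface receptors in blue and endosomal receptors in brown to orange. Tlr13 takes 34.2% to 41.8% in T-DCs and at most 18.6% in the other samples, and Tlr11 takes 1.71% to 2.27% in T-DCs.

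Ratios between receptors of the same sample do not depend on how the sample was scaled. The ratio of Tlr13 to Tlr11 was 16.3, 17.6 and 24.5 in T-DCs, 1.25 to 2.18 in N-mDCs and 0.313 to 1.65 in T-mDCs. The ratio of Tlr7 to Tlr9, the sensors of single-stranded RNA and of CpG DNA, was 2.34 to 4.13 in T-DCs and 1.44 to 2.75 in N-mDCs, which overlapped. It was 0.198 to 0.472 in T-mDCs, so T-mDCs were the only one of the 3 groups with more Tlr9 than Tlr7. The ratio of Tlr1 to Tlr6, alternative partners of TLR2, was 2.02 to 3.82 in T-DCs, 4.33 to 5.8 in N-mDCs and 7.03 to 9.09 in T-mDCs, without overlap. Tlr1 and Tlr6 are neighbours on chromosome 5, 18467 bases apart, with closely related sequences, and how reads that fit both were counted is not given in the sources used here.

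Among the 4 surface receptors, Tlr1 was lower in T-DCs than in T-mDCs and the other 3 did not differ beyond the spread between samples in either T-DC comparison. Tlr1, which pairs with TLR2 to bind triacylated lipopeptides (chr5:64924679-64933563), was at 26.4, 15.9 and 18.3 in N-mDCs, 22.4, 14.2 and 5.85 in T-DCs, and T-mDCs had 34.8, 36.1 and 36.2 FPKM. All T-mDC samples were above the samples of both other groups, which overlapped with each other. T-DCs were below T-mDCs by a log2 fold change of -1.45 (SE 0.40, limma adjusted p = 0.046), and the difference from N-mDCs was -0.62 (95% interval -1.54 to 0.29, limma adjusted p = 0.297).
Tlr2 (chr3:83836272-83841767) was at 19.8, 36.2 and 49.1 in N-mDCs, 34.8, 24.9 and 10.6 in T-DCs, and T-mDCs had 22.3, 12.6 and 12.3 FPKM. Tlr4, the lipopolysaccharide receptor (chr4:66827584-66930284), was at 4.09, 4.95 and 6.78 in N-mDCs, 12.5, 4.31 and 2.25 in T-DCs, and T-mDCs had 4.49, 1.78 and 1.55 FPKM. For both genes T-DC sample 1 was high and T-DC sample 3 was low, and the T-DC samples overlapped with the other groups. The 95% interval of the difference between T-DCs and N-mDCs was -1.69 to 0.45 for Tlr2 and -1.16 to 1.14 for Tlr4 on the log2 scale, which leaves room for changes in either direction. Tlr6, the other partner of TLR2 (chr5:64952031-64960097), was at 2.9 to 7.76 FPKM over all 9 samples, with mean levels of 3.89 ± 0.861 in N-mDCs, 4.79 ± 2.61 in T-DCs, and T-mDCs had 4.34 ± 0.53 FPKM (SD, n = 3 each). Its log2 fold changes were 0.17 (limma adjusted p = 0.723) against N-mDCs and 0.03 (limma adjusted p = 0.953) against T-mDCs, and its limma adjusted p in the F-test over the groups (0.881) was the highest of the 10 receptors.

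**Figure D2:**
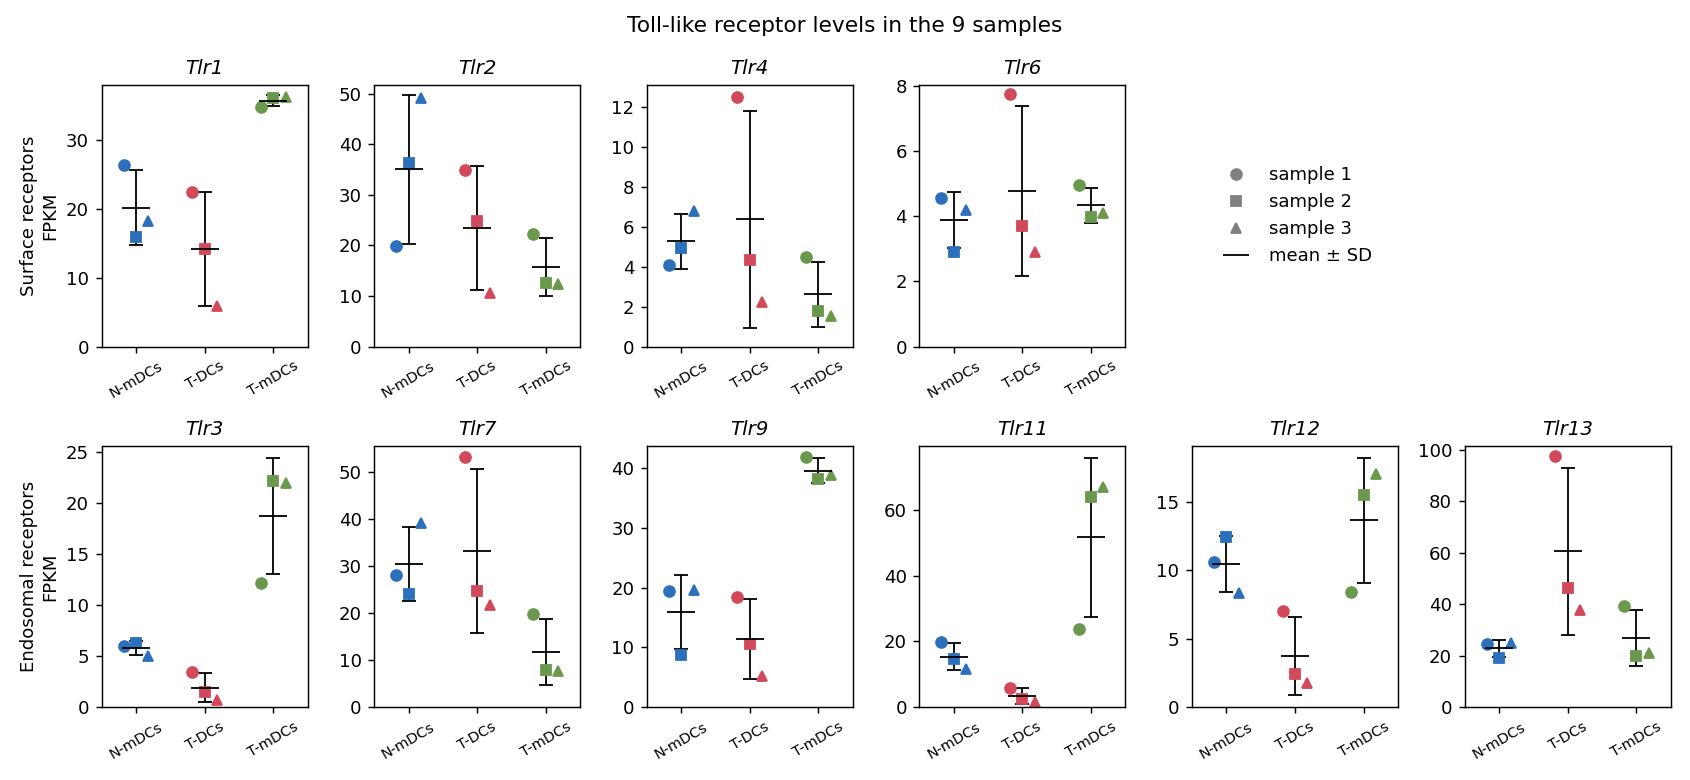
FPKM (y axes, linear from 0, 1 scale per receptor) of the surface (top) and endosomal receptors (bottom) in the N-mDC, T-DC and T-mDC samples, with the mean ± SD of 3 samples in black. Tlr3, Tlr11 and Tlr12 are lowest in the T-DC samples, and T-DC sample 1 is the highest T-DC sample for each of the 10 receptors.

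Among the 6 endosomal receptors, Tlr3, Tlr11 and Tlr12 were lower in T-DCs than in both other groups, Tlr9 was lower than in T-mDCs, and Tlr13 (against both groups) and Tlr7 (against T-mDCs) had positive fold changes that did not pass the test. Tlr11, which recognizes profilin of protozoan parasites (chr14:50357914-50363663, plus strand), was at 19.8, 14.8 and 11.5 in N-mDCs, 5.99, 2.62 and 1.55 in T-DCs, and T-mDCs had 23.8, 64.0 and 67.0 FPKM. The 3 groups did not overlap, with T-DCs lowest and T-mDCs highest. The mean of T-DCs (3.39 ± 2.31 FPKM, SD, n = 3) was 4.54-fold lower than that of N-mDCs (15.4 ± 4.21 FPKM) and 15.2-fold lower than that of T-mDCs (51.6 ± 24.1 FPKM). On the log2 scale the differences were -2.0 (SE 0.48, limma adjusted p = 0.0254) and -3.58 (SE 0.48, limma adjusted p = 0.00303). Fewer cells of a type and less RNA per cell cannot be told apart in these bulk samples, for Tlr11 as for the other receptors.

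Tlr3, the sensor of double-stranded RNA (chr8:45395665-45411080, minus strand), was at 5.96, 6.32 and 5.02 in N-mDCs, 3.47, 1.54 and 0.708 in T-DCs, and T-mDCs had 12.2, 22.1 and 21.9 FPKM. The order of the groups was that of Tlr11, again without overlap. The lowest value rested on 56 reads, in T-DC sample 3. T-DCs were 3.02-fold below N-mDCs and 9.79-fold below T-mDCs in mean FPKM, with log2 fold changes of -1.33 (SE 0.36, limma adjusted p = 0.038) and -2.83 (SE 0.36, limma adjusted p = 0.00256). The antisense gene Gm45542 overlaps Tlr3, and it was listed at 0 reads in each of the 9 samples. Whether reads were counted by strand is not given in the sources used here.
Tlr12, the partner of TLR11 in profilin sensing (chr4:128615443-128618619), was at 10.6, 12.4 and 8.34 in N-mDCs, 7.03, 2.44 and 1.78 in T-DCs, and T-mDCs had 8.42, 15.5 and 17.0 FPKM. T-DCs were below both groups, which overlapped with each other. The log2 fold changes were -1.41 against N-mDCs (SE 0.41, limma adjusted p = 0.0485) and -1.73 against T-mDCs (SE 0.41, limma adjusted p = 0.0268). Tlr11 exceeded Tlr12 in N-mDCs and T-mDCs, where their ratio was 1.19 to 4.14, and in T-DCs the ratio was 0.852 to 1.08.

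Tlr9 (chr9:106222598-106226883) was at 19.5, 8.75 and 19.6 in N-mDCs, 18.5, 10.5 and 5.28 in T-DCs, and T-mDCs had 41.9, 38.1 and 38.8 FPKM. T-mDCs stood above both other groups, which overlapped. T-DCs were 3.47-fold below T-mDCs in mean FPKM (log2 fold change -1.85, SE 0.42, limma adjusted p = 0.0236), and against N-mDCs the 95% interval of the log2 fold change was -1.48 to 0.45 (limma adjusted p = 0.416). Tlr7 (chrX:167304929-167330558) was at 28, 24.0 and 39.2 in N-mDCs, 53.1, 24.6 and 21.8 in T-DCs, and T-mDCs had 19.8, 7.81 and 7.67 FPKM. T-DCs and N-mDCs overlapped, and T-mDCs lay below both. The difference of T-DCs from T-mDCs did not pass the threshold (log2 fold change 1.44, 95% interval 0.45 to 2.42, limma adjusted p = 0.0587). It passed in 4 of the 23 alternatives tried, among them the fit without T-mDC sample 1 (1.85, limma adjusted p = 0.019).
Tlr13 (chrX:106143204-106160493) was at 24.7, 19.1 and 25.0 in N-mDCs, 97.6, 46.2 and 37.9 in T-DCs, and T-mDCs had 39.3, 20.0 and 21 FPKM. Each T-DC sample was above each N-mDC sample, while T-DC sample 3 lay below T-mDC sample 1. The mean of T-DCs (60.6 ± 32.4 FPKM, SD, n = 3) was 2.65-fold that of N-mDCs (22.9 ± 3.31 FPKM), and neither the difference from N-mDCs (log2 fold change 1.25, 95% interval 0.39 to 2.12, limma adjusted p = 0.0557) nor that from T-mDCs (1.09, 0.23 to 1.96, limma adjusted p = 0.0906) passed the threshold. The first difference passed in 5 of the 23 alternatives tried and the second in 3. Without T-mDC sample 1, limma gave an adjusted p of 0.0472 for the first difference and 0.0479 for the second. That fit left T-mDC samples 2 and 3, the closest pair within a group, to share in the estimate of the spread.

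**Figure D3:**
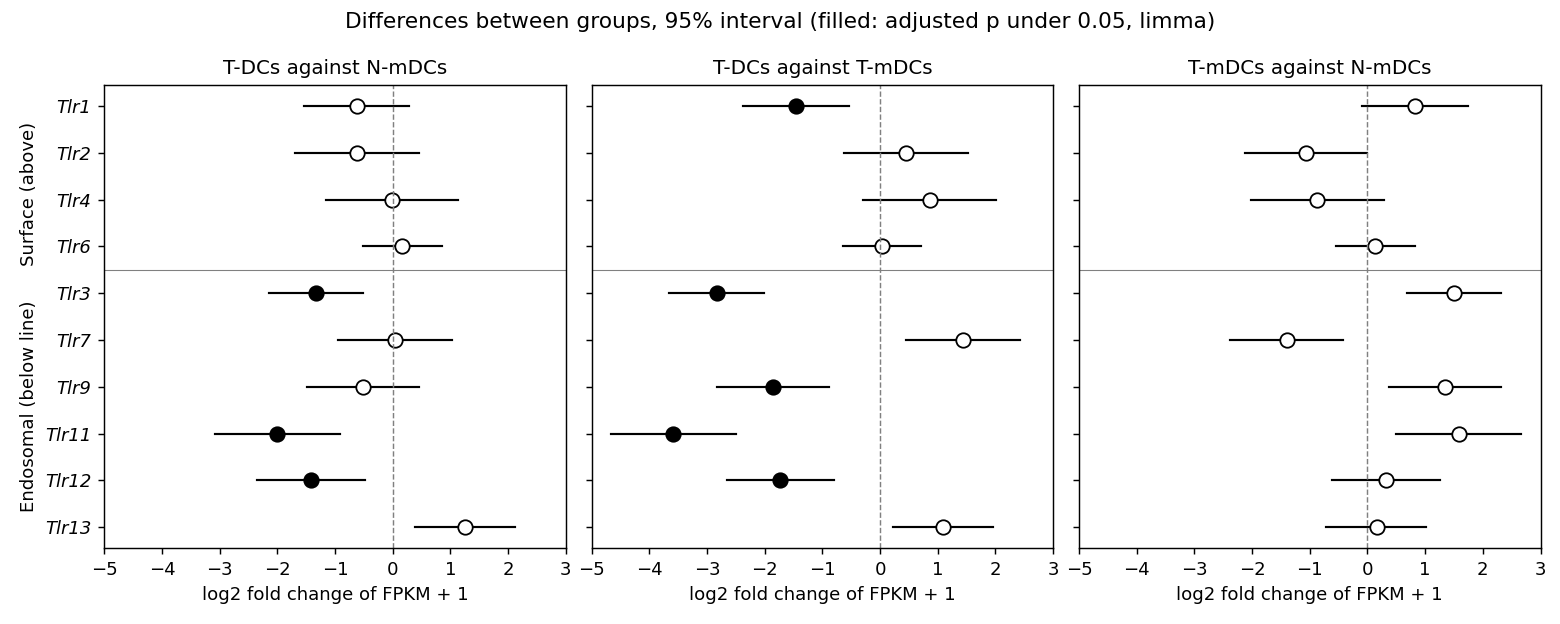
Log2 fold change of FPKM + 1 (x axes) of each receptor in the comparisons of T-DCs with N-mDCs, T-DCs with T-mDCs and T-mDCs with N-mDCs, with the 95% interval. Filled points pass an adjusted p of 0.05 (limma): 3, 5 and 0 of the 10 receptors.

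Against N-mDCs, 3 of the 10 receptors were called lower in T-DCs and 0 higher (limma, adjusted p under 0.05), where 10.3% of the 12746 tested genes were called lower, 6.1% higher and 16.4% either way. All 3 were endosomal, and 0 of the 4 surface receptors were called. The groups did not overlap for 4 receptors, against 32.4% of all tested genes, with Tlr3, Tlr11 and Tlr12 lower (16.4% of all tested genes) and Tlr13 higher (16%). The median log2 fold change was -0.56 over the receptors and 0.05 over all tested genes. At an unadjusted p under 0.05 there were 3 lower receptors and 1 higher, Tlr13.
Leaving out N-mDC sample 1, 2 or 3, or T-DC sample 2 or 3, left 0 receptors called in this comparison, and leaving out T-mDC sample 2 or 3 left 1, Tlr11. These fits called 980 to 1553 of the 12746 tested genes, where the fit of all samples called 2096. Without T-DC sample 1, there were 4, where 5030 of the 12746 tested genes were called. With T-DC sample 1 as the only T-DC sample, the log2 fold changes were -1.20 for Tlr11, -0.59 for Tlr3, -0.50 for Tlr12 and 2.05 for Tlr13. A single sample has no spread of its own, so no test of that fit is given.

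Against T-mDCs, 5 of the 10 receptors were called lower in T-DCs and 0 higher, where 8.79% of the tested genes were called lower, 5.44% higher and 14.2% either way. They were the surface receptor Tlr1 and the endosomal receptors Tlr3, Tlr9, Tlr11 and Tlr12. The groups did not overlap for 6 receptors, against 34.9% of all tested genes. T-DCs were lower for the 5 called receptors (18.1% of all tested genes did not overlap in this direction) and higher for Tlr7 (16.8%). The median log2 fold change was 0.24 over the surface receptors, -1.79 over the endosomal receptors and 0.07 over all tested genes. Tlr3 and Tlr11 passed the threshold in all 23 alternatives tried. They were the only receptors called without T-DC sample 2, T-DC sample 3, T-mDC sample 2 or T-mDC sample 3, and with T-mDC samples 2 and 3 averaged into 1. The comparisons with N-mDCs and with T-mDCs share the T-DC samples.
In the F-test over the 3 groups, Tlr3, Tlr9, Tlr11 and Tlr12 were called, 4 of 10 receptors where 18% of all tested genes were.

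T-mDCs and N-mDCs, the mature cDCs of leukemic and healthy mice, differed in 0 of the 10 receptors by limma and by limma voom on whole reads (adjusted p under 0.05), where limma called 2.21% of the tested genes, 1.52% lower and 0.69% higher in T-mDCs. At an unadjusted p under 0.05 there were 4, all endosomal. Tlr3, Tlr9 and Tlr11 were on the higher side in T-mDCs (log2 fold change 1.5, limma adjusted p = 0.0778, for Tlr3, 1.34, limma adjusted p = 0.16, for Tlr9 and 1.58, limma adjusted p = 0.141, for Tlr11), and Tlr7 was on the lower side (-1.40, limma adjusted p = 0.148). The groups did not overlap for these 4 receptors and for Tlr1, 5 of 10 against 35% of all tested genes, of which 15.7% were lower and 19.3% higher. Of the 5 receptors, Tlr7 was lower and the other 4 higher. Without T-DC sample 1, which lends its spread to this fit, Tlr3, Tlr7 and Tlr9 were called, and without T-DC sample 3, Tlr3 was. Those fits called 1022 and 282 of the 12746 tested genes.

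T-DC sample 1 had the highest level of the 3 T-DC samples for all 10 receptors, and T-DC sample 3 the lowest for all 10. In N-mDCs and T-mDCs 1 sample was highest for at most 6 receptors. The coefficient of variation among T-DC samples ran from 51.9% (Tlr2) to 85.1% (Tlr4). Summed over 7 neutrophil markers, the level was 7.81 FPKM in T-DC sample 1 and 3430 and 1190 FPKM in T-DC samples 2 and 3, and summed over 8 erythroid markers it was 607, 58100 and 42500 FPKM. Their part in the receptor levels was not tested. With levels rescaled to the reads outside erythroid genes, 4 receptors differed between T-DCs and N-mDCs and 6 between T-DCs and T-mDCs. That fit called 2150 and 1864 of the 12746 tested genes in these comparisons. Tlr13 was added in the first comparison (limma adjusted p = 0.046) and Tlr7 in the second (limma adjusted p = 0.0498).

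Markers of cDC1 were among those that moved with Tlr3, Tlr11 and Tlr12. Summed over 8 cDC1 markers (Xcr1, Clec9a, Batf3, Cadm1, Itgae, Wdfy4, Naaa and Gcsam), the level was 277–405 in N-mDCs, 37.8–179 in T-DCs, and T-mDCs had 456 to 714 FPKM. Of the 8 markers, T-DCs were called below N-mDCs for 4 (10.3% of all tested genes) and below T-mDCs for 8 (8.79% of all tested genes), and 0 were at 0 in any sample. Xcr1, the chemokine receptor that marks cDC1, was at 18.9, 13 and 11.4 in N-mDCs, 6.81, 1.96 and 1.02 in T-DCs, and T-mDCs had 25.4, 63.8 and 63.2 FPKM.
Per 100 FPKM of the cDC1 markers, Tlr3 was at 1.47–1.95 in N-mDCs, 1.87–2.01 in T-DCs, and T-mDCs had 2.67 to 3.12 FPKM. Tlr12 was at 2.61–3.84 in N-mDCs, 3.18–4.72 in T-DCs, and T-mDCs had 1.85 to 2.38 FPKM. For these receptors T-DCs and N-mDCs overlapped on this scale, and for Tlr12 T-DCs were above T-mDCs. With each of the 8 markers alone, Tlr3 in T-DCs was above all N-mDC samples for 3, overlapped for 4 and was below for 1. Against T-mDCs, Tlr3 was below for 4, overlapped for 3 and was above for 1. Tlr12 was above N-mDCs for 3 and overlapped for 5, and it was above T-mDCs for 6 and overlapped for 2. Tlr11 per 100 FPKM of cDC1 markers was at 3.34, 3.42 and 4.10 FPKM in T-DCs, close below the 4.13 to 4.89 of N-mDCs, and T-mDCs had 5.22 to 9.37 FPKM. This order depended on the marker. Set against each of the 8 cDC1 markers alone, Tlr11 in T-DCs was below all N-mDC samples for 2 markers (Itgae and Naaa), overlapped for 5 and was above for 1, Clec9a, with ratios of 0.525, 0.581 and 0.554 in T-DCs and 0.381 to 0.516 in N-mDCs. Against T-mDCs it was below for 5 and overlapped for 3. The 4 markers of cDCs as a whole (Zbtb46, Flt3, Itgax and Kmo) summed to 243–365 in N-mDCs, 54–178 in T-DCs and 265 to 325 FPKM in T-mDCs. T-DCs were called lower for 3 of them in both comparisons (10.3% and 8.79% of all tested genes). Per 100 FPKM of these markers, Tlr3 was at 1.31 to 1.95 in T-DCs and 1.63 to 2.6 FPKM in N-mDCs, which overlapped. Tlr11 was at 2.51 to 3.36 and 4.49 to 6.08 FPKM, without overlap. Some cDC2, plasmacytoid DC, B cell, T cell and NK cell markers were also called lower in T-DCs against N-mDCs. For each of these cell types the T-mDC sums lay below the N-mDC sums. The sums were 22.8 to 34.3 against 136 to 205 FPKM for NK cell markers, and 52 to 187 against 223 to 293 FPKM for B cell markers. Of 8 cDC2 markers, T-DCs were called below N-mDCs for Clec10a, Clec4a4, Esam, Cd209a and Cd4. They were called below T-mDCs for Clec4a4, Esam and Cd209a, and above T-mDCs for Itgam. The 8 cDC2 markers summed to 426–471 in N-mDCs, 460, 207 and 121 in T-DCs, and 252 to 323 FPKM in T-mDCs. Per 100 FPKM of the cDC2 markers, Tlr3 was at 0.584 to 0.756 FPKM in T-DCs and 1.18 to 1.39 FPKM in N-mDCs, and Tlr11 was at 1.27 to 1.30 FPKM in T-DCs and 2.69 to 4.21 FPKM in N-mDCs, without overlap. B cell markers (5 of 6 tested, where 10.3% of all tested genes were called lower) and the NK cell markers Klrd1 and Gzma were also called below N-mDCs. The NK cell markers Ncr1, Klrb1c and Eomes were under 1 FPKM in each T-DC sample, as was the cDC2 marker Mgl2. These genes passed the filter only through other groups, so their tests are not given as results. Mature migratory DC markers were also lowest in T-DCs, as given below. The part of these cell types in the receptor levels was not tested.

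Monocyte and macrophage markers were compared with Tlr13 and Tlr7 in the same way. Summed over 8 monocyte markers, the level was 254–513 in N-mDCs, 465–870 in T-DCs, and T-mDCs had 78.4 to 260 FPKM. Of 7 tested markers, 2 were called lower (10.3% of all tested genes) and 0 higher (6.1%) in T-DCs than in N-mDCs. Against T-mDCs, 1 was called higher (5.44%). Vcan was at 0 in N-mDC sample 1. The T-DC sum rested largely on Csf1r in sample 1 and on Chil3 and Csf1r in samples 2 and 3. Csf1r was at 609, 281 and 176 in T-DCs and 203, 314 and 265 FPKM in N-mDCs. Chil3 was at 108, 528 and 240 in T-DCs and 0.627, 22.1 and 68.1 FPKM in N-mDCs. Ccr2 and Fcgr1 were the 2 called lower. Without Chil3 the sum was 224 to 655 in T-DCs and 253 to 445 FPKM in N-mDCs, most of it Csf1r in each sample. Per 100 FPKM of the 8 markers, Tlr13 was at 4.12 to 9.75 in N-mDCs and 5.31 to 12.8 in T-DCs, which overlapped, and at 15.1 to 26.8 FPKM in T-mDCs. Per 100 FPKM of the 7 markers other than Chil3, it was at 13.5 to 16.9 FPKM in T-DCs and 4.33 to 9.75 FPKM in N-mDCs, without overlap, and at 16.4 to 27.4 FPKM in T-mDCs. Summed over 8 macrophage markers, the level was 1420–3120 in N-mDCs, 646–2680 in T-DCs, and T-mDCs had 482 to 1230 FPKM. Of the 8, 0 were called in either T-DC comparison (16.4% and 14.2% of all tested genes) and 0 were at 0 in any sample. Per 100 FPKM of the macrophage markers, Tlr13 was at 3.64, 4.38 and 5.87 in T-DCs and 0.613 to 1.75 in N-mDCs, without overlap, and T-mDCs had 3.19 to 4.36 FPKM, which overlapped with T-DCs. Tlr7 on this scale was at 1.98 to 3.38 in T-DCs, 0.771 to 2.37 in N-mDCs and 1.59 to 1.61 FPKM in T-mDCs. The part of these cell types in the receptor levels was not tested.

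Across the 9 samples, the receptors fell into patterns that did not follow the split into surface and endosomal. Tlr3 and Tlr11 had the highest Pearson's r of any pair (0.99, n = 9 samples, log2 scale), followed by Tlr1 and Tlr9 (0.95), Tlr11 and Tlr12 (0.93), Tlr3 and Tlr12 (0.91), and Tlr4 and Tlr7 (0.91). The lowest value was that of Tlr7 and Tlr11 (-0.67). The surface receptor Tlr1 thus went with the endosomal receptors Tlr3, Tlr9, Tlr11 and Tlr12 (0.83 to 0.95), and the endosomal receptor Tlr7 with the surface receptors Tlr2 and Tlr4 (0.75 and 0.91). The points share their libraries, and the 3 groups differ in level, so these values describe the samples and are not a test.

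**Figure D4:**
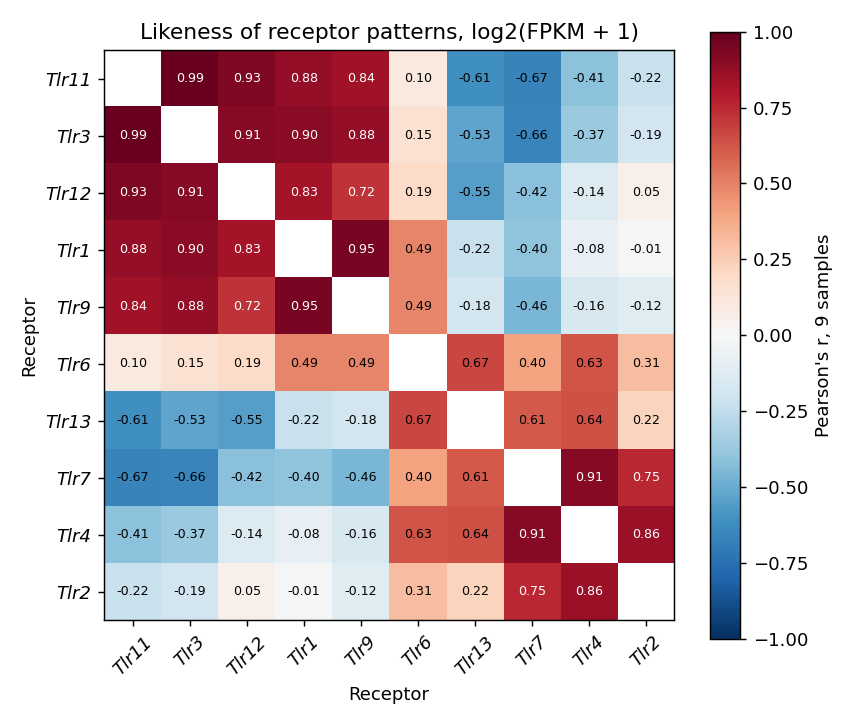
Pearson's r between receptors over log2(FPKM + 1) in 9 samples (color, from -1 to 1), with receptors on both axes ordered by likeness. Tlr11, Tlr3, Tlr12, Tlr1 and Tlr9 form a block with r of 0.72 to 0.99, and Tlr7, Tlr4 and Tlr2 a block with r of 0.75 to 0.91.

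The genes whose pattern was most like that of Tlr11 over the 9 samples were Fndc7 (r = 0.997), Xcr1 (r = 0.997) and Nostrin (r = 0.992). For Tlr3 they were Ifi205, an interferon-inducible gene (r = 0.995), Traf2, a signaling adaptor of the TNF receptor family (r = 0.992), and Xcr1 (r = 0.99). Xcr1 was thus among the 3 most similar genes for both receptors, and T-DCs were called below N-mDCs (log2 fold change -2.07, limma adjusted p = 0.0319) and below T-mDCs for it (-3.73, limma adjusted p = 0.00378). A gene picked by its likeness to these receptors in the same samples tends to share their calls, so these 2 calls add no separate support.
Tlr12 was most like Strada (r = 0.988), Gdpd5 (r = 0.985) and Plbd1 (r = 0.984). Tlr9 was most like Cflar, an inhibitor of caspase activation (r = 0.984), Edem1 (r = 0.982) and Foxred2 (r = 0.977), and Tlr1 was most like Smad1 (r = 0.988), Stx7 (r = 0.982) and Shtn1 (r = 0.981). For Tlr4 the most similar genes were Cd44, a hyaluronan receptor (r = 0.995), Cd84 (r = 0.987) and Igsf6 (r = 0.983).
Tlr7 was most like Gcnt2 (r = 0.991), Lgals8 (r = 0.976) and Sidt2 (r = 0.97). Tlr13 was most like H6pd (r = 0.989), Smurf2 (r = 0.986) and Arid3a (r = 0.985). Tlr2 was most like Gm15832 (r = 0.96), 2210406H18Rik (r = 0.958) and Serpina3f (r = 0.957), and Tlr6 was most like Spata6 (r = 0.988), Eif4g3 (r = 0.978) and Gosr1 (r = 0.976).

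The remaining members of the family in the table were Tlr5 and Tlr8. Tlr5, the flagellin receptor, was at 3.16, 1.09 and 2.77 in N-mDCs, 0.361, 0.269 and 0.165 in T-DCs, and T-mDCs had 0.929, 2.16 and 1.95 FPKM. Each T-DC sample was below the samples of both other groups and under 1 FPKM, so Tlr5 passed the filter only through the groups in which it was higher, and its test is not given as a result. Tlr8, the neighbour of Tlr7 on chromosome X (40599 bases apart), was at 6.67, 3.93 and 12.8 in N-mDCs, 29.7, 13.8 and 7.57 in T-DCs, and T-mDCs had 10.5, 3.91 and 3.59 FPKM, with overlap between the groups and limma adjusted p of 0.25 and 0.16 for T-DCs against N-mDCs and T-mDCs.

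A list of 65 other genes of the pathway, from co-receptors to induced cytokines and with Tlr5 and Tlr8 included, held 58 that could be tested. Of these, 11 were called lower (10.3% of all tested genes) and 2 higher (6.1%) in T-DCs than in N-mDCs, and 10 lower (8.79%) and 3 higher (5.44%) than in T-mDCs, with Tlr5 among the lower genes of both counts. The median log2 fold change was -0.31 and -0.22, against 0.05 and 0.07 over all tested genes. Against N-mDCs, the count of 13 fell to 7 without N-mDC sample 1 and to 6 without N-mDC sample 3, and was 25 without T-DC sample 1. Of all 12746 tested genes, these fits called 980, 1041 and 5030 in this order, and the fit of all samples 2096. Against T-mDCs, the count of 13 was 8 without N-mDC sample 3, 6 and 7 without T-DC samples 2 and 3, 4 without T-mDC sample 2 or 3, and 27 without T-DC sample 1. Of all tested genes, these fits called 1352, 825, 1074, 543, 541 and 4475 in this order, and the fit of all samples 1813. In T-mDCs against N-mDCs, 2 were called lower (1.52% of all tested genes) and 1 higher (0.69%), Cd14, Il1b and Il6. The count was 0 with T-mDC samples 2 and 3 averaged into 1 and without N-mDC sample 2, T-mDC sample 2 or T-mDC sample 3. It was 1 without N-mDC sample 3 and 5 without T-DC sample 1. Of all tested genes, the fits with a count of 0 or 1 called 23 to 55, that without T-DC sample 1 called 1022, and the fit of all samples 282.

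Among the co-receptors and accessory proteins, Cd36, a scavenger receptor that hands lipid ligands to TLR2 and TLR6, was at 115, 80.1 and 68.4 in T-DCs, 21.7 to 30.3 in N-mDCs and 31.3 to 50.7 FPKM in T-mDCs, and was called higher in T-DCs in both comparisons (log2 fold change 1.63, limma adjusted p = 0.00645, and 1.18, limma adjusted p = 0.0241). Ly86, which encodes MD-1, the partner of the TLR-like protein CD180, was called lower in both (-1.87, limma adjusted p = 0.017, and -1.44, limma adjusted p = 0.0456). Cd14, the co-receptor of TLR4, was highest in N-mDCs (99.5, 260 and 202 FPKM), lower in T-mDCs (32.0, 9.94 and 7.64 FPKM) and in between in T-DCs (83.2, 72.5 and 40.8 FPKM). T-DCs were called above T-mDCs (2.12, limma adjusted p = 0.0371), and T-mDCs below N-mDCs (-3.58, limma adjusted p = 0.0189), a call lost with T-mDC samples 2 and 3 averaged.

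Of 9 genes for chaperones, transport and receptor cleavage, T-DCs were called below N-mDCs for Unc93b1, and 0 genes were called against T-mDCs. Of all tested genes, 16.4% and 14.2% were called either way in these comparisons. Unc93b1 was at 315, 375 and 307 in N-mDCs, 218, 136 and 69.8 in T-DCs, and T-mDCs had 254, 251 and 252 FPKM. The T-DC samples were below both other groups without overlap, with log2 fold changes of -1.37 (SE 0.36, limma adjusted p = 0.0343) and -0.98 (SE 0.36, limma adjusted p = 0.105). Of 4 tested endosomal nucleases, Dnase1l3, a DNase secreted by DCs and macrophages, was at 153, 94.9 and 86.7 in N-mDCs, between 9.95 and 40 in T-DCs, and T-mDCs had 129, 154 and 156 FPKM, and was called lower in both comparisons (-2.51, limma adjusted p = 0.00853, and -2.94, limma adjusted p = 0.00475).

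Of 14 adaptors and proximal kinases, 1 was called in each T-DC comparison, where 16.4% and 14.2% of all tested genes were, Irak2 against N-mDCs (log2 fold change -0.67, limma adjusted p = 0.0454) and Traf6 against T-mDCs (-1.14, limma adjusted p = 0.0312). Myd88 was at 24.9–39.8 in N-mDCs, 25.7–52.4 in T-DCs, and T-mDCs had 38.3 to 41.7 FPKM, with overlap, and the 95% interval of its log2 fold change in T-DCs against N-mDCs was -0.36 to 0.89. Of 8 tested negative regulators, Irak3, a kinase homolog that restrains MyD88 signaling, was called higher in T-DCs in both comparisons, at 26.6, 21.4 and 11.1 FPKM against 2.11 to 3.76 in N-mDCs and 1.64 to 9.86 FPKM in T-mDCs (2.33, limma adjusted p = 0.022, and 2.15, limma adjusted p = 0.0317). Tnfaip3, which encodes A20, was called lower against N-mDCs (-2.28, limma adjusted p = 0.00728), and the deubiquitinase gene Cyld was called lower in both comparisons (-1.11, limma adjusted p = 0.0329, and -1.09, limma adjusted p = 0.0381). The negative regulators thus moved in both directions, with 1 called higher (6.1% of all tested genes) and 2 lower (10.3%) against N-mDCs. Against T-mDCs, 1 was called higher (5.44%) and 1 lower (8.79%).

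Of 6 transcription factors, Rel, an NF-kB subunit, was called lower in T-DCs in both comparisons (-3.03, limma adjusted p = 0.00636, and -2.29, limma adjusted p = 0.0207), and the other 5 were not called. Of 10 tested induced genes, 3 were called lower against N-mDCs (Ptgs2, Il1b and Ccl4) and 4 lower against T-mDCs (Il12b, Ptgs2, Il6 and Ccl4), and 0 were called higher. Of all tested genes, 10.3% were called lower against N-mDCs and 8.79% against T-mDCs, for comparison with both lists. Ptgs2, the inducible cyclooxygenase, was at 63.8, 41.7 and 92.5 in N-mDCs, 2.22, 3.27 and 0.661 in T-DCs, and T-mDCs had 31.1, 43.8 and 45.1 FPKM (-4.49, limma adjusted p = 0.000639, and -3.83, limma adjusted p = 0.00177, in the same order of comparisons). Il12b, the shared subunit of IL-12 and IL-23, was at 51.3, 10.8 and 32.9 in N-mDCs, 12.3, 6.43 and 1.67 in T-DCs, and T-mDCs had 125, 126 and 123 FPKM, and was called against T-mDCs (-4.29, limma adjusted p = 0.00455). Between the groups of mature cDCs, T-mDCs expressed less Il1b (-2.34, limma adjusted p = 0.0158) and more Il6 (2.06, limma adjusted p = 0.0243) than N-mDCs, and both calls were lost with T-mDC samples 2 and 3 averaged. The mature migratory DC markers summed to 3.89 to 30.7 in T-DCs, 380 to 1220 in N-mDCs and 947 to 1460 FPKM in T-mDCs. Of these markers, Ccr7, Fscn1 and Cacnb3 were called lower in T-DCs in both comparisons. Ccl22 and Socs2 were under 1 FPKM in each T-DC sample and passed the filter only through the other groups, so their tests are not given as results. The part of the migratory DC markers in the levels of the induced genes was not tested.

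**Figure D5:**
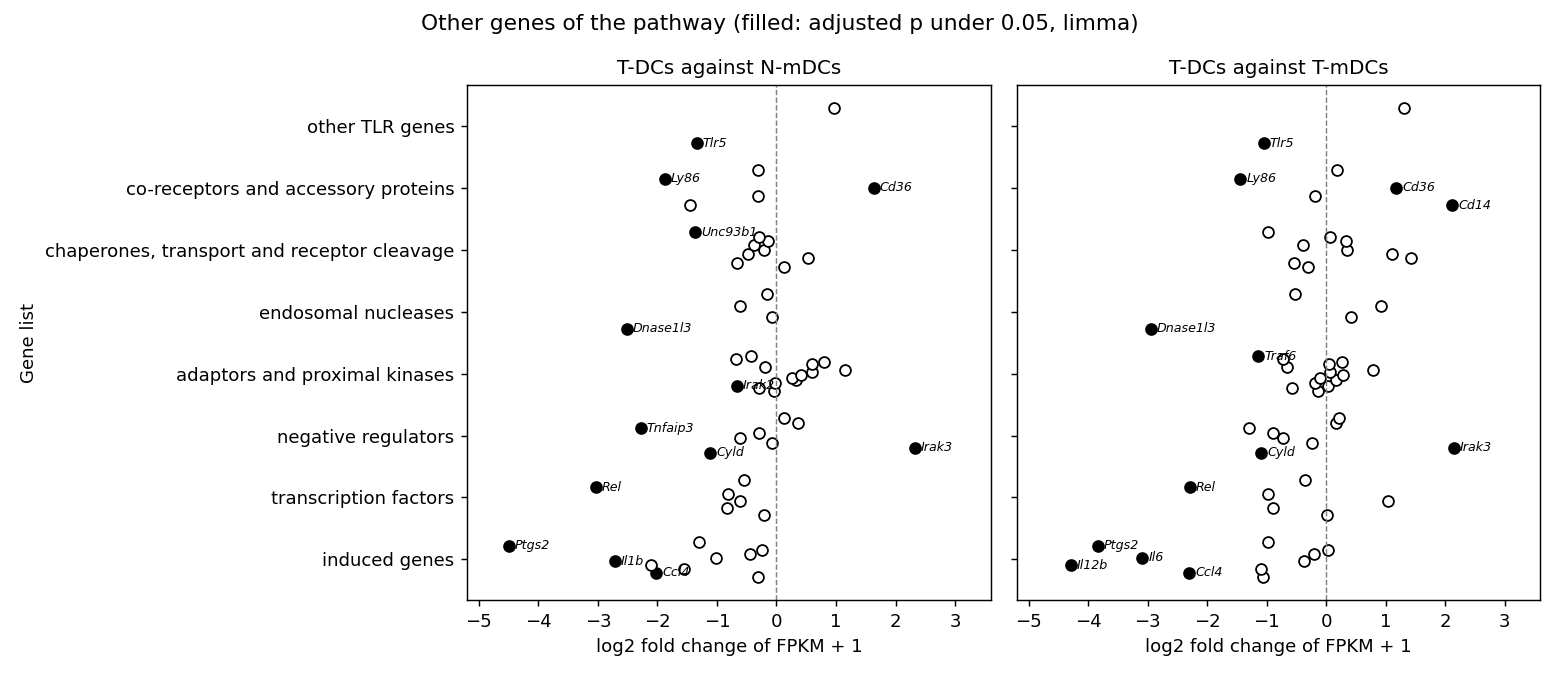
Log2 fold change of FPKM + 1 (x axes) of 58 other pathway genes in T-DCs against N-mDCs (left) and against T-mDCs (right), grouped by role (y axis). Filled points pass an adjusted p of 0.05 (limma) and carry the gene's symbol: 13 genes in each panel, of which 11 and 10 are lower in T-DCs.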

How the data were processed

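RNA-seq of 3 N-mDC, 3 T-DC and 3 T-mDC samples was analysed. The authors deposited a table of FPKM per gene with gene positions and lengths, and the labels name the genome build mm10. The aligner, annotation version and counting program are not given in the sources used here. Each FPKM times the gene length and a single scaling size per library, found from the values, gave a whole number of reads (largest deviation 2.86e-05 of a read). Of 54532 genes, the 12746 that reached 1 FPKM in 3 samples or more were tested on log2(FPKM + 1), which understates the change of low genes. A single limma fit of all samples was made (limma version 3.58.1, R version 4.3.3, empirical Bayes with trend), Benjamini-Hochberg adjustment covered all tested genes, and an adjusted p under 0.05 was called. The test was tested on simulated data. Samples were grouped by their titles, and replicate numbers were not used to pair samples.

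The genes named are the 10 receptors, the called genes of each pathway list (at most 3 with the largest change per comparison, lists of up to 3 genes in full), and per receptor the 3 genes with the highest Pearson's r. Myd88 and marker genes were named beside them for context, and Gm45542 for its overlap. The members and lists were chosen with earlier results of these data known. Promoter windows came from RefSeq (GRCm38.p6). The 23 alternatives were other pseudocounts, filters, scalings and fits, a replicate block and leaving out samples.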

Additional observations from a re-analysis of the deposited data

How the results depend on the processing

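Of the 30 differences of single receptors, each under up to 23 alternatives, 560 values kept their direction and side of the threshold, 64 lost the call, 31 gained it and 29 turned direction, and the cause was not tested. All 29 belonged to differences that were not called. Counts below give T-DCs with N-mDCs, then T-DCs with T-mDCs, then T-mDCs with N-mDCs and, for receptors, the F-test. The reported counts were 3, 5, 0 and 4 receptors and 13, 13 and 3 pathway genes. Over all 12746 tested genes, the reported fit called 2096, 1813 and 282. Leaving out each sample in turn gave 0 to 4, 2 to 5, 0 to 3 and 2 to 6 receptors and 6 to 25, 4 to 27 and 0 to 5 pathway genes. Those fits called 980 to 5030, 541 to 4475 and 23 to 1022 of all tested genes. Without a filter on low values, which raises the number of genes tested, there were 0, 2, 0 and 2 receptors and 8, 7 and 3 pathway genes (1489, 1279 and 278 of 28859 genes in all). With only the groups compared in the fit, there were 1, 3 and 1 receptors and 8, 7 and 5 pathway genes (1070, 1036 and 850 of all tested genes). Array weights, whose estimation stopped before it converged, gave 6, 9, 8 and 9 receptors and 41, 49 and 20 pathway genes. They also raised the calls over all genes, to 8485, 9923 and 3841 of the 12746 tested genes. With T-mDC samples 2 and 3 averaged into 1, there were 1, 2, 0 and 2 receptors and 10, 4 and 0 pathway genes (1394, 540 and 23 of all tested genes). Leaving out T-DC samples 2 and 3 left 1 T-DC sample, so no counts are given for that fit. Rescaling to TPM gave 1, 5, 0 and 3 receptors and 11, 10 and 1 pathway genes (1651, 1715 and 99 of all tested genes). It shifted the median log2 fold change of all tested genes to -0.23 for T-DCs against T-mDCs, with 21.9% of called genes higher (38.2% as reported), and to 0.23 for T-mDCs against N-mDCs, with 49.5% higher (31.2% as reported). Limma voom shifted the latter to 0.13.

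The replicate block gave 1, 4, 0 and 3 receptors and 11, 7 and 1 pathway genes (1378, 1253 and 78 of the 12746 tested genes). The 1 receptor between T-DCs and N-mDCs was Tlr13, called higher (limma adjusted p = 0.036), and the lower calls of Tlr3, Tlr11 and Tlr12 were lost (limma adjusted p = 0.071, 0.0563 and 0.0848). Samples of the same number deviated from their group means with correlations of -0.47 to 0.27, and 2 of 9 samples correlated best with a sample of their own number, so the numbers were not taken as a pairing.

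Differences that turned direction were as follows, on the log2 scale. For T-DCs against N-mDCs, leaving out T-DC samples 2 and 3 gave 0.18 for Tlr1, 0.08 for Tlr2, 1.12 for Tlr4 and 0.28 for Tlr9. Tlr4 was at 0.03 after rescaling outside erythroid genes and ranged from -0.57 to 0.45 over the fits that left out 1 sample each. Tlr6 was at -0.16 with array weights and -0.18 to 0.41 with 1 sample left out. Tlr7 was at -0.07 with TPM, -0.09 with quantile normalization, -0.33 with array weights, -0.02 with voom and -0.35 to 0.27 with 1 sample left out. For T-DCs against T-mDCs, Tlr6 was at -0.27 with TPM, -0.01 with quantile normalization, -0.11 with array weights, -0.12 with voom, -0.01 with T-mDC samples 2 and 3 averaged, and -0.31 to 0.27 with 1 sample left out. For T-mDCs against N-mDCs, Tlr6 was at -0.05 with array weights and -0.01 to 0.24 with 1 sample left out, and Tlr13 was at -0.17 with array weights and -0.14 to 0.33 with 1 sample left out. The 3 samples per group limit what could be called.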
